A study of Mus musculus with 9 samples.

Results

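Nuclear oxidative phosphorylation genes are the chromosomal genes that encode the subunits and helper proteins of the mitochondrial respiratory chain and the ATP synthase. They were followed here in blood cells of mice with and without experimental arthritis. Members were all rows of the blood expression table whose gene name starts with Nduf, Uqcr, Atp5 or Cox4 to Cox8, which gave 94 of 23499 genes. By name, 38 encode subunits of complex I, 8 of complex III, 15 of complex IV and 15 of complex V. A further 11 are assembly or accessory factors (the Ndufaf genes, Atp5s, Atp5sl and Cox7a2l), and 7 are rows with the suffix -ps, the usual mark of a pseudogene. The rule leaves out complex II, cytochrome c, the complex III subunit cytochrome c1 and most assembly factors of complexes III and IV. These are given as separate lists. Each value was also set against the summed signal of 9 mitochondrially encoded rows, those starting mt-Nd, mt-Co and mt-Atp.

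The samples were peripheral blood cells of 9 female 129SvE mice, 5 with experimental arthritis (mice 1, 3, 4, 5 and 6) and 4 healthy (mice 1 to 4). The disease stage on the labels was 1.5 in arthritic mice 1 and 4, 2 in mouse 3, 1.5 to 2 in mouse 5 and 2 to 2.5 in mouse 6, against 0 in every healthy mouse. The labels and the design text name neither the way arthritis was induced nor the age of the mice. Cells were read out by Seq-Well, in which single cells and barcoded beads share small wells and messenger RNA is captured by its polyA tail. Such reads come from one end of a transcript, and the table gives no transcript lengths, so an order of genes by signal below describes this table and not numbers of transcripts.

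The arthritic mice had 1027, 964, 721, 502 and 794 table columns with a total signal of 8350920 to 13557201, and the healthy mice had 30, 201, 26 and 45 columns with 330950 to 2053973. Because of this gap, 1 unit of signal was worth 0.0738 to 0.120 signal per 1000000 (SPM) in an arthritic mouse and 0.487 to 3.02 SPM in a healthy mouse. Of the 4310 columns, 1313 were identical to another column, and 59 healthy columns matched an arthritic column in every gene. Columns were therefore summed per mouse, and p-values measure the spread between mice that share part of their values. Hemoglobin genes took 0.772%, 0.630%, 33.8%, 50.0% and 3.61% of the signal in the arthritic mice and 17.2%, 1.68%, 55.0% and 41.5% in the healthy mice. Columns of the deposited granulocyte class made up 31.4% to 86.7% of an arthritic mouse's columns and 2.49% to 44.4% of a healthy mouse's. In such sums, fewer cells of a type and less RNA per cell cannot be told apart.

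Complex I takes electrons from NADH, complex III passes them to cytochrome c, complex IV hands them to oxygen, and complex V makes ATP from the proton gradient that the other complexes build. Complexes I, III, IV and V are each assembled from subunits of both genomes, so the nucleus and the mitochondrion must both supply transcripts. Mature neutrophils, the main granulocytes of blood, are known for few mitochondria and a reliance on glycolysis, whereas dividing blood precursors carry many. In mammals, NRF1, the ETS family factor GABP and YY1 are known regulators of many of these nuclear genes.

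The promoters of 73 members were found in the RefSeq table for build GRCm38.p6, each running from 250 bases before the annotated transcript start to 50 after it. The NRF1 motif (GCGCA, any base, then GCGC), searched on both strands like the others, was present in 17 of the 73 member promoters (23.3%), against 1402 of 27025 promoters of all genes (5.19%). The ETS motif CCGGAAG was present in 16 (21.9%, against 9.93% of all), and the YY1 motif AAGATGGC in 12 (16.4%, against 3.19% of all). In total 39 members held at least 1 of the 3 motifs, and no 2 matches of different motifs overlapped. A match is a run of letters and not a shown binding site. The promoters of 3 members that differ in this respect and that return below are printed 5′ to 3′ on the gene's strand, with NRF1 motif matches in capitals. Uqcrc1, a core protein of complex III, has 2 matches, starting at positions 256 and 281, where position 251 is the annotated start. Atp5o, a subunit of the stalk of complex V, has 1 match at position 260. Cox6b2, the testis form of a complex IV subunit, has none, nor any ETS or YY1 match.
Uqcrc1, chr9:108936398-108936697, plus strand: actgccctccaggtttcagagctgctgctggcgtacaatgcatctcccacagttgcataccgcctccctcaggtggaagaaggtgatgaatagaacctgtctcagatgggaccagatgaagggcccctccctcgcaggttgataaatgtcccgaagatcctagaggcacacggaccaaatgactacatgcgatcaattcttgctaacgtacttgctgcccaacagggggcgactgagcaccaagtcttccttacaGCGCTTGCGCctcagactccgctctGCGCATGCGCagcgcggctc
Atp5o, chr16:91931581-91931880, minus strand: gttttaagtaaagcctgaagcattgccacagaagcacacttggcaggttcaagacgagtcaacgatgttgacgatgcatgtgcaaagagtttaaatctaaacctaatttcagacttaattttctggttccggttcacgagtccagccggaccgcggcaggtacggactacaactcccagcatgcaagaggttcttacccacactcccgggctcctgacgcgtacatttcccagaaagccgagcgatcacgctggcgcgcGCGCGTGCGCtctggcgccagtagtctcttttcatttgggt
Cox6b2, chr7:4753045-4753344, minus strand: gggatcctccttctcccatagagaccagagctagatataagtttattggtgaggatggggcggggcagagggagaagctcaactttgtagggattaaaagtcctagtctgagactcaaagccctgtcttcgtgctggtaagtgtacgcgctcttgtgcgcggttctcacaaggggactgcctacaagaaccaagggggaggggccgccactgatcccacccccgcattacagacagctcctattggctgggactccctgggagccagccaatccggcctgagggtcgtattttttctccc

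Over all cells, the members together were higher in arthritic blood, while the mitochondrially encoded rows were lower. The summed signal of the 94 members was 14633, 14124, 12074, 14965 and 10549 SPM in the arthritic mice and 11534, 10180, 8923 and 10682 SPM in the healthy mice. The means were 13269 ± 1891 SPM in arthritic and 10330 ± 1092 SPM in healthy mice (SD, n = 5 and 4), a ratio of 1.28. In these scaled sums, arthritic mouse 6, whose stage was the highest, was the lowest of its group and overlapped the healthy mice. The other 4 arthritic mice lay above all 4 healthy ones, but this separation depended on the scaling. With total signal alone as the scaling, arthritic mice 4, 5 and 6 had 10561, 8332 and 14311. These lay within the healthy range of 6400 to 14622, and arthritic mice 1 and 3 lay above it at 18141 and 18743. The mitochondrially encoded sum was 2126, 2192, 2402, 1801 and 3165 SPM in the arthritic mice and 2498, 4054, 3231 and 3326 SPM in the healthy mice. Arthritic mouse 6 again overlapped. With total signal alone as the scaling, arthritic mice 1, 3 and 6 had 2635, 2909 and 4294. These lay within the healthy range of 2318 to 5131, and arthritic mice 4 and 5 lay below it at 2101 and 1003. The ratio of nuclear to mitochondrial signal, which does not depend on the scaling between mice, was therefore 6.88, 6.44, 5.03, 8.31 and 3.33 in the arthritic mice, against 4.62, 2.51, 2.76 and 3.21 in the healthy mice. Its means were 6.0 ± 1.89 in arthritic and 3.28 ± 0.940 in healthy mice (SD, n = 5 and 4), a log2 difference of 0.87. No p is given for these sums, because they run over members chosen with earlier results known.

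Signal of neutrophil marker genes also differed between the groups, which cannot separate the number of such cells from their RNA per cell. The summed signal of 18 neutrophil granule genes was 16240 to 141530 SPM in arthritic mice and 4479 to 14245 SPM in healthy mice, without overlap, and its part in the members' difference was not tested. Of the marker lists, the median log2 difference over all cells was 2.82 for neutrophil granule genes, 0.75 for proliferation, 0.18 for monocyte and dendritic, -0.12 for B and plasma cell, -0.20 for skeletal muscle, -0.35 for T cell, -0.77 for erythroid and -0.79 for NK cell genes, and -0.26 for the 1 platelet gene tested. Only 1 marker gene, of the neutrophil list, was called (limma).

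**Figure D1:**
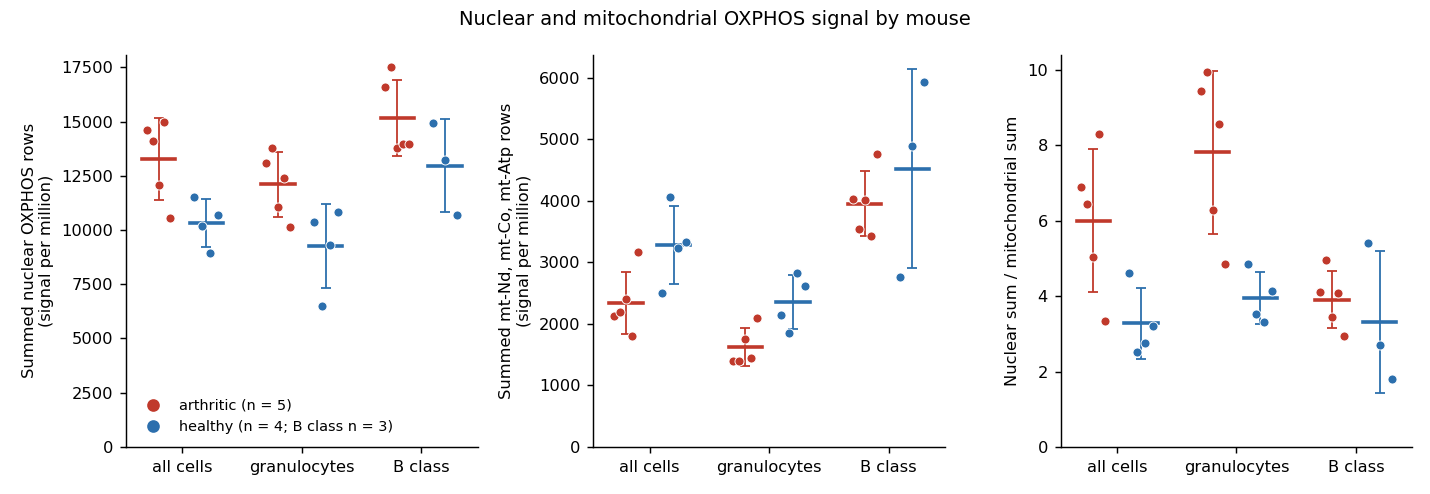
Summed signal of the 94 nuclear members (left), of the 9 mitochondrially encoded rows (middle) and their ratio (right), for all cells, the granulocyte class and the B class. Each point is a mouse and bars are means with SD. Arthritic mouse 6 is the lowest arthritic point in the nuclear sum and ratio over all cells, at 10549 SPM and 3.33.

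Gene by gene, no member passed the threshold over all cells. Of the 81 members that passed the filter on low values, 0 had an adjusted p under 0.05 (limma with Benjamini-Hochberg adjustment over 8459 genes), where 1 of all genes (0.0118%) was called higher and 3 (0.0355%) lower in arthritic mice. At an unadjusted p under 0.05 there were 22 members, all higher in arthritic mice. This was 27.2% of the members tested, against 10.8% of all genes tested. None was lower at that level, against 2.57% of all genes. A positive log2 difference was found for 74 of the 81, against 69.3% of all genes. The median log2 difference was 0.40 for the members and 0.26 for all genes, so relative to the shift of all genes the members' median was 0.14 higher. By role, the median was 0.43 for complex I, 0.34 for complex III, 0.37 for complex IV, 0.34 for complex V and 0.16 for the assembly and accessory factors. All 8 members of complex III and all 11 tested members of complex IV had positive differences, as did 33 of 37 in complex I and 13 of 14 in complex V.

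Ndufb4, an accessory subunit of the membrane arm of complex I (chr16:37647170-37654453, minus strand, GENCODE M21 on GRCm38), had the smallest p. It had 140, 139, 126, 147 and 131 SPM in the arthritic mice, against 86.9, 97.7, 92.7 and 69.2 SPM in the healthy mice. It was the only member whose groups did not overlap with arthritic mice higher, 1 of 81 (1.23%), against 3.64% of all genes. No member had all arthritic mice below all healthy mice, against 1.26% of all genes. Its log2 difference was 0.66 ± 0.17 (SE; limma adjusted p = 0.203). Ndufab1, the mitochondrial acyl carrier protein that is also a complex I subunit, had 131, 135, 90.3, 148 and 75.2 SPM in arthritic mice and 84.5, 69.6, 50.6 and 51.3 SPM in healthy mice (log2 difference 0.83 ± 0.26, limma adjusted p = 0.261). It overlapped through arthritic mouse 6. The accessory subunits Ndufb2 and Ndufa8 had log2 differences of 0.62 and 0.71, with limma adjusted p values of 0.279 and 0.286.

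The members with the smallest p among negative differences were the pseudogene row Atp5k-ps2 (-0.72), the factor Atp5sl (-0.42) and the complex I subunits Ndufs1 (-0.23), Ndufb5 (-0.08) and Ndufs5 (-0.08), in log2. Ndufs1, the largest subunit of complex I, had 38.7, 33.2, 29.9, 29.7 and 24.7 SPM in arthritic and 37.6, 39.6, 29.5 and 40.2 SPM in healthy mice. The groups overlapped for all 5, and none passed an unadjusted p of 0.05.

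**Figure D2:**
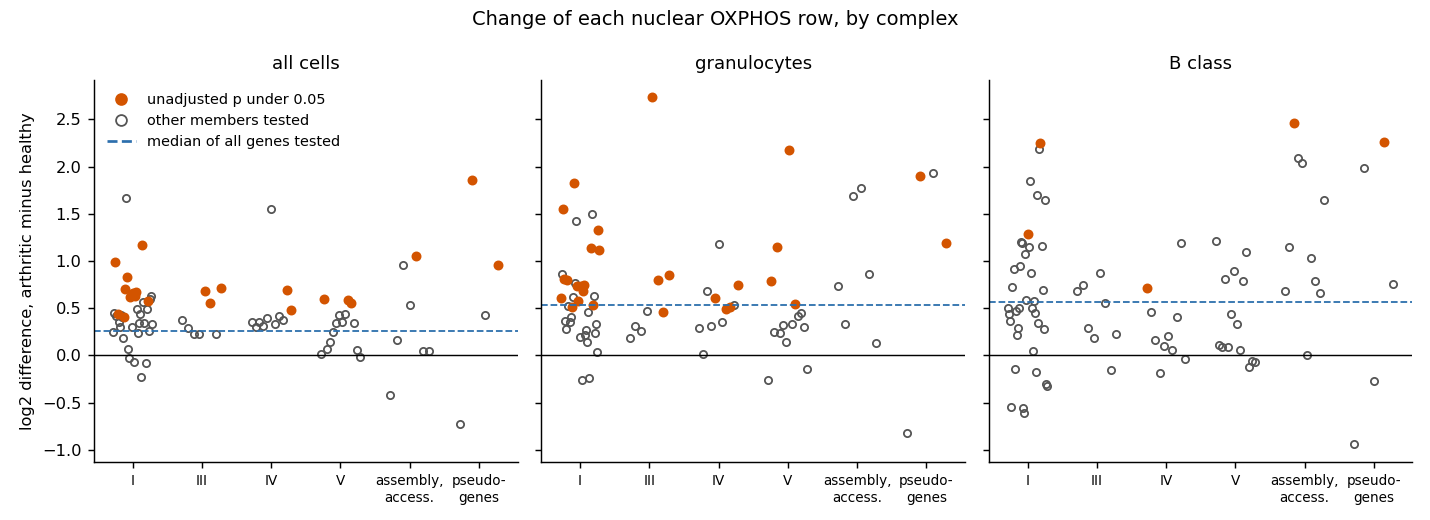
Log2 difference between arthritic and healthy mice (vertical axis) for each tested member, grouped by role, over all cells, in the granulocyte class and in the B class. Each point is a gene, filled where the unadjusted p was under 0.05, and the dashed line marks the median of all genes tested (0.26, 0.53 and 0.56). Every filled point lies above 0, and most members lie above 0 in each panel, as does the median of all genes.

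Over the 9 mice, the 3 highest of complex I were Ndufb8 (360 SPM), Ndufa4 (350 SPM) and Ndufa6 (320 SPM), where Ndufa4 is now known as a complex IV subunit. Those of complex III were Uqcrq (296 SPM), Uqcr10 (281 SPM) and Uqcrh (279 SPM), and those of complex IV were Cox4i1 (665 SPM), Cox6c (415 SPM) and Cox6a1 (311 SPM). In complex V they were Atp5j (427 SPM), Atp5e (386 SPM) and Atp5c1 (330 SPM). Their log2 differences lay between 0.07 for Atp5c1 and 0.71 for Uqcrq, and the 2 groups of mice overlapped for each of the 12. Cox4i1, the common form of the largest nuclear complex IV subunit, had 725, 742, 695, 886 and 637 SPM in arthritic mice and 650, 580, 560 and 509 SPM in healthy mice (log2 difference 0.35 ± 0.17, limma adjusted p = 0.389). Atp5c1, the central shaft of the ATP synthase motor, had 389, 361, 317, 336 and 286 SPM in arthritic mice and 331, 290, 337 and 323 SPM in healthy mice.

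Among the mitochondrially encoded genes, mt-Nd2, a core complex I subunit, had 450, 467, 491, 362 and 669 SPM in arthritic mice and 535, 918, 741 and 801 SPM in healthy mice (log2 difference -0.62 ± 0.23, limma adjusted p = 0.311). The log2 differences of mt-Nd5, mt-Nd4 and mt-Nd1 were -0.60, -0.48 and -0.44, and that of mt-Cytb, the complex III subunit outside the sum, was -0.44. No mitochondrially encoded gene named here passed the threshold, and for each of them arthritic mouse 6 lay within the range of the healthy mice. The rows mt-Co2, mt-Co3 and mt-Atp6 stayed at 8.43 SPM or less in every mouse. These genes have near-identical copies in the nuclear genome on chromosome 1, such as Gm28437, at 3.78 to 10.5 SPM in arthritic and 4.70 to 25.3 SPM in healthy mice. Reads shared with such copies may have been counted elsewhere or dropped, so the mitochondrial sum rests mainly on mt-Co1 and the mt-Nd genes.

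Forms of complex IV and complex I subunits restricted to other tissues were at or near the floor. Cox4i2, the lung form, and Ndufa4l2, known to be induced by hypoxia, were at most 0.38 and 0.20 SPM in any mouse and at 0 in all 4 healthy mice. The heart and skeletal muscle forms were low as well. Cox6a2 had 2.02, 1.96, 5.83, 11.5 and 3.18 SPM in arthritic mice and 2.35, 1.54, 4.21 and 4.46 SPM in healthy mice. Cox7a1 lay between 1.10 and 5.37 SPM in arthritic and between 0 and 11.2 SPM in healthy mice, and Cox8b between 0.265 and 8.16 SPM in arthritic and 0 and 4.70 SPM in healthy mice. Cox6b2, the testis form of Cox6b1, had 30.1, 18.2, 11.9, 26.5 and 3.35 SPM in arthritic mice and 16.4, 3.85, 8.43 and 0 SPM in healthy mice. Its groups overlapped (log2 difference 1.55 ± 0.84, limma adjusted p = 0.408). Summed signal of 16 skeletal muscle genes was 79.4 to 278 SPM in arthritic and 76.6 to 344 SPM in healthy mice.

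The granulocyte class was compared within the mice, 5 arthritic with 249 to 489 columns each and 4 healthy with 5 to 20. Here the median member was higher in arthritic mice by as much as the median of all genes. Hemoglobin genes took 0.704%, 0.715%, 34.0%, 51.6% and 7.21% of the class signal in arthritic mice and 22.3%, 22.4%, 53.7% and 43.2% in healthy mice, and their part in the values below was not tested. The summed signal was 13109, 13797, 11051, 12415 and 10155 SPM in arthritic mice and 10388, 6521, 9329 and 10840 SPM in healthy mice. These scaled sums overlapped through arthritic mouse 6. With total signal alone as the scaling, arthritic mice 4 and 5 had 9938 and 7695, within the healthy range of 7282 to 13297. Arthritic mice 1, 3 and 6 then lay above it at 14168, 14621 and 14023. The ratio to the mitochondrial sum was 9.43, 9.93, 6.29, 8.55 and 4.84 in arthritic mice, against 4.85, 3.54, 3.31 and 4.14 in healthy mice, a log2 difference of the means of 0.98, and arthritic mouse 6 again overlapped the healthy mice. Of 79 members tested, 0 passed the adjusted threshold (limma, 7935 genes tested), where 46 of all genes (0.58%) were called higher and 6 (0.0756%) lower. At an unadjusted p under 0.05 there were 29, all higher, or 36.7% against 19.3% of all genes, where 2.29% of all genes were lower at that level. A positive difference was found for 74 of the 79 members (93.7%), against 77.3% of all genes. The median log2 difference was 0.53 for the members and 0.53 for all genes. By role it was 0.59 for complex I, 0.47 for complex III, 0.52 for complex IV and 0.33 for complex V. For 8 members (10.1%) every arthritic mouse was above every healthy mouse, against 8.65% of all genes, and for none was it the reverse, against 1.4% of all genes. Among them were Ndufa7, Ndufb6 and Ndufv2 of complex I, Uqcrq and Uqcrc2 of complex III, and the pseudogene rows Uqcrh-ps2 and Atp5l-ps2. This share was close to that of all genes and is not a result about the members.

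Ndufv2, a core subunit of the NADH-oxidizing part of complex I (chr17:66078638-66101559, minus strand, GENCODE M21), had the smallest p in granulocytes. It had 96.5, 97.3, 84.2, 85.9 and 74.3 SPM in arthritic mice, against 33.1, 36.6, 17.6 and 63.8 SPM in healthy mice. The log2 difference was 1.32 ± 0.33 (SE; limma adjusted p = 0.0862, with a range of 0.0121 to 0.287 over the alternatives). It passed the threshold in 8 of 25 alternatives, among them each that left out healthy mouse 2, 3 or 4. These 8 hold 7 distinct fits, since a minimum of 10 columns leaves out only healthy mouse 2. The fit without columns identical between the groups also lacks that mouse. Uqcrq, a small subunit of complex III, had 306, 334, 319, 395 and 261 SPM in arthritic mice and 199, 208, 96.5 and 243 SPM in healthy mice (log2 difference 0.86 ± 0.26, limma adjusted p = 0.123). Ndufa3, an accessory complex I subunit, had a log2 difference of 0.80 (limma adjusted p = 0.118). Uqcrh-ps2, whose reads may be shared with Uqcrh, had 1.19 (limma adjusted p = 0.128). The negative differences with the smallest p were those of Atp5a1 (-0.26), Atp5k-ps2 (-0.82), Ndufb5 (-0.27), Atp5o (-0.14) and Ndufs1 (-0.24). Atp5a1, the alpha subunit of the catalytic head of complex V, had 106, 103, 103, 94.8 and 93.6 SPM in arthritic mice and 110, 110, 96.5 and 179 SPM in healthy mice. When columns identical between the groups were left out, 13 members were called, or 16.3% of those tested, against 10.2% of all genes. That fit also lacked healthy mouse 2, since 3 of its 5 columns were identical to an arthritic column and 5 were required. The fit with only healthy mouse 2 left out is therefore not independent of it. Its count was 8, or 10.1% against 10.2% of all genes, a share near the background. Without any other single mouse it was between 0 and 3, against 0% to 4.36% of all genes. Healthy mouse 2 gave only 5 granulocyte columns. Within this class, the 18 neutrophil granule genes had a median log2 difference of 2.51, and its part in the members' values was not tested.

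In the deposited B class, with 5 arthritic mice and 3 healthy mice of 5 or more columns, no member passed either. Of 84 tested, 0 were called (limma, 9585 genes tested, of which 0, or 0%, were called). At an unadjusted p under 0.05 there were 5 members, all higher, which was 5.95% against 6.43% of all genes (616 higher, and 61, or 0.636%, lower). A positive difference was found for 69 of the 84 members (82.1%), against 71.4% of all genes. The median log2 difference was 0.50 for the members and 0.56 for all genes. The groups did not overlap, with arthritic mice higher, for Ndufa1, Cox4i1, Uqcrc2, Ndufb4 and Uqcrh-ps1, or 5.95% against 3.38% of all genes, and the reverse held for no member, against 1.28% of all genes. Ndufb4 had 180, 181, 193, 177 and 179 SPM in arthritic mice and 140, 130 and 21.9 SPM in healthy mice 1, 2 and 4 (log2 difference 1.28 ± 0.54). Cox4i1 had 930, 978, 960, 1080 and 873 SPM in arthritic mice and 806, 778 and 318 SPM in those healthy mice (log2 difference 0.72 ± 0.31). The low value of both lay in healthy mouse 4, and the limma adjusted p was 0.519 for each. Of the 15 B class columns of healthy mouse 4, 12 were identical to an arthritic column, so its values rest largely on shared columns. Hemoglobin genes took 40.7% of the B class signal in that mouse and 0.131% to 19.1% in the other 7, and their part in these values was not tested. The rows Uqcrh-ps1, Ndufs5 and Ndufaf1 had log2 differences of 2.26, 2.25 and 2.47 at the same adjusted p, with at least 1 healthy mouse at 0. Of the 15 members with negative differences, the 5 with the smallest p were Ndufa12 (-0.55), Ndufb11 (-0.61), Atp5k-ps2 (-0.94), Ndufb10 (-0.56) and Ndufv2 (-0.30), and each of these 5 had its highest value in healthy mouse 4. That mouse had 987 SPM of Ndufb11 where the other 7 mice had 177 to 275 SPM. The ratio of nuclear to mitochondrial signal was 4.12, 4.94, 3.44, 4.08 and 2.94 in arthritic mice and 5.41, 2.71 and 1.81 in healthy mice, which overlapped. Its log2 difference was 0.24, and it turned to -0.11 with 1 column of each identical set and to -0.06 without healthy mouse 4.

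The difference between the granulocyte and the B class changes was tested within mice that had both classes, 5 arthritic and 3 healthy. Of 79 members, 0 were called (limma, 7654 genes, of which 0% were called in either direction). At an unadjusted p under 0.05 there were 5 of 79 members, against 791 of 7654 genes, a smaller share for the members. The median of the members was 0.16 in log2, as was that of all genes.

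Among classes, the members were highest in the deposited myeloid progenitor class. The 6 deposited classes large enough to compare were set against each other within the arthritic mice, with the mouse as a block and each class against the mean of the others. The classes were made from the same table, so these contrasts describe where the members are high and carry no independent check of the class. Scaling factors were set anew over these class sums, so SPM values here cannot be compared with those of the arthritic and healthy comparisons above. The summed member signal was 23083 ± 3554 SPM in progenitors (SD, n = 4 mice), 18468 ± 2334 in granulocytes (n = 5), 15195 ± 4197 in the foxP3 class (n = 5), 14748 ± 2599 in the B class (n = 5), 12913 ± 1910 in the CD4T class (n = 5) and 11815 ± 1333 in the dendritic class (n = 4). Progenitors lay at 19274 to 26740 SPM in the 4 mice, with the granulocyte range of 15178 to 20964 SPM overlapping their lower end, and neighbours further down overlapped too. The ratio to the mitochondrial sum separated the progenitors more clearly, but their mitochondrial sum was also the lowest of the 6 classes. The mean mitochondrial sum was 1461 SPM in progenitors, 2465 in granulocytes, 2572 in dendritic, 2773 in foxP3, 3847 in B and 4130 in CD4T. The ratio was 17.7, 17.1, 12.9 and 15.5 in progenitors of arthritic mice 1, 3, 4 and 5. Its means elsewhere were 7.81 ± 2.17 in granulocytes, 6.59 ± 4.14 in the foxP3 class, 4.68 ± 0.983 in the dendritic class, 3.91 ± 0.759 in the B class and 3.22 ± 0.628 in the CD4T class. The highest value outside the progenitors in arthritic mice was 11.8 in the foxP3 class, so within these mice they did not overlap any other class. The only healthy progenitor columns, 1 each in healthy mice 2 and 4, had ratios of 10.4 and 10.7. Healthy dendritic columns, 4 in mouse 1 and 1 each in mice 2 and 4, had 5.56, 2.42 and 15.2, so in healthy mice the progenitor values lay within the dendritic range. In the foxP3 class the mice fell apart, with 10.4 and 11.8 in arthritic mice 1 and 3, where hemoglobin was 0.174% and 0.658% of its signal, and 3.68, 3.99 and 3.13 in mice 4, 5 and 6, where it was 45.4%, 61.9% and 18.5%.

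**Figure D3:**
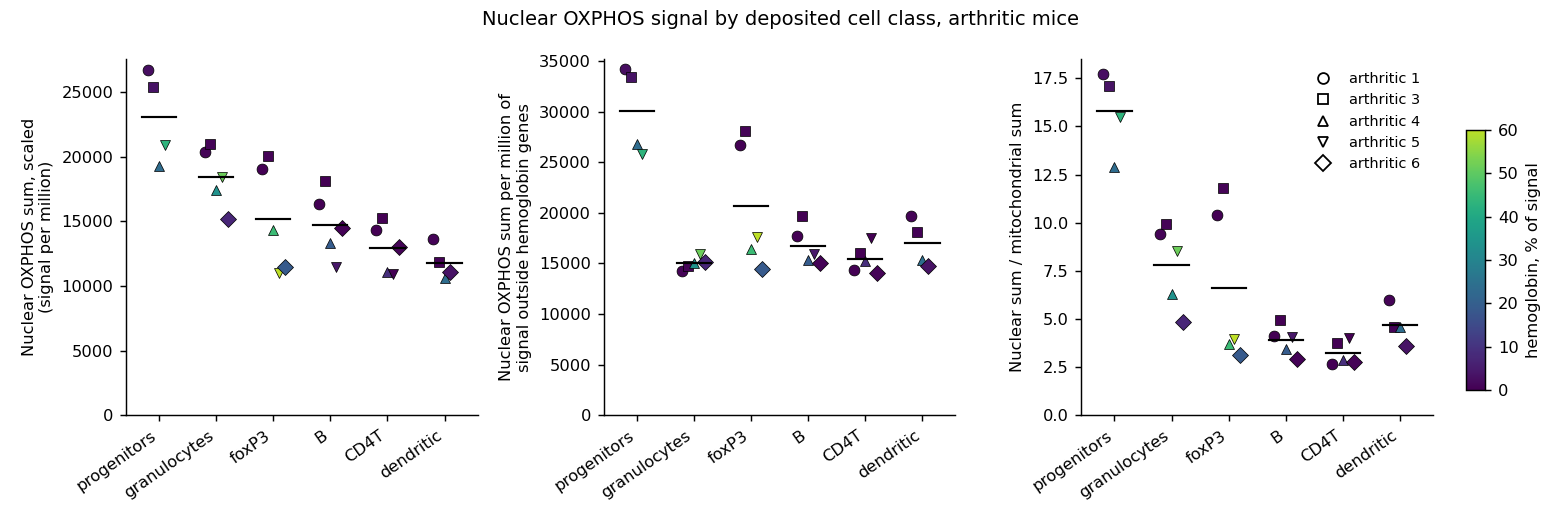
Summed signal of the nuclear members in the 6 deposited classes of arthritic mice, scaled (left), per 1000000 of signal outside hemoglobin genes with no further scaling (middle), and as a ratio to the mitochondrially encoded sum (right). Symbols are mice, colour is the hemoglobin share of the class and bars are means. The progenitor class has the highest mean in each panel, 23083 SPM, 30019 per 1000000 and a ratio of 15.8.

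The class labels were checked against markers. The progenitor class held Kit at 20.6 to 68.9 SPM and Cd34 at 25.4 to 41.1 SPM, both markers of blood precursors, but also the red cell precursor genes Car2 at 4078 to 12436 SPM and Klf1 at 124 to 303 SPM. Of 15 erythroid genes, 14 were called higher in it than in the other classes, with a median log2 difference of 2.88. All 12 proliferation genes were called higher too, with a median of 2.59. Their part in the members' values was not tested. The class thus held markers of both kinds and is called progenitor here only by its label. In the foxP3 class, Foxp3 itself, the defining factor of regulatory T cells, was at 0 to 7.70 SPM, against 0 to 21.8 SPM in the CD4T class, so its label did not hold on that marker. In that class 11 of 12 T cell and 7 of 10 NK cell genes were called higher. In the B class all 14 B and plasma cell genes were called higher, with a median of 2.19. So were 11 of 12 T cell genes, with a median of 1.21, so the B class held signal of both kinds. A neutrophil gene had signal in every class: S100a8 was at 39950 to 268326 SPM in granulocytes but still at 430 to 705 SPM in the CD4T class.

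Of 88 members tested, 60 were called higher in progenitors than in the other classes (68.2%, against 19.3% of all 12752 genes) and 2 lower (2.27%, against 16.4%; limma with Benjamini-Hochberg adjustment). The median log2 difference was 0.77, against 0.15 over all genes. All complexes took part, with 24 of 37 tested complex I members, 7 of 8 of complex III, 11 of 12 of complex IV and 13 of 15 of complex V called higher. Among assembly and accessory factors 4 of 11 were higher and 2 lower, and 1 of 5 pseudogene rows was higher. NRF1 motif matches were in 12 of the 49 called-higher members with a promoter and in 5 of the other 24. When any 1 arthritic mouse was left out, 49 to 57 were called higher, or 56.3% to 65.5% of the members tested, against 15.1% to 19.0% of all genes.

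In complex I, Ndufab1 rose to 325, 325, 271 and 219 SPM in progenitors of mice 1, 3, 4 and 5, against 39.1 to 224 SPM over all mice of the other classes (log2 difference 1.51 ± 0.20, limma adjusted p = 5.02e-07). Ndufb8, an accessory subunit, rose to 879, 830, 631 and 759 SPM, against 229 to 737 SPM (log2 difference 0.99 ± 0.13, limma adjusted p = 4.00e-07). In complex III, Uqcr11, its smallest subunit, had 813, 766, 460 and 553 SPM, against 89.8 to 380 SPM (log2 difference 1.40 ± 0.15, limma adjusted p = 1.23e-08), with no overlap. Uqcrc1, whose promoter with 2 NRF1 matches is printed above, had 424, 360, 292 and 357 SPM, against 43.5 to 250 SPM (log2 difference 1.41 ± 0.21, limma adjusted p = 2.49e-06), again with no overlap. In complex V, Atp5o had 670, 608, 499 and 571 SPM, against 135 to 501 SPM (log2 difference 1.02 ± 0.16, limma adjusted p = 4.76e-06). Atp5k, the subunit e that helps complex V form dimers, rose by 1.07 ± 0.17 in log2 (limma adjusted p = 1.44e-05).

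Complex IV held the member with the largest log2 class difference among the subunits. Cox6b2, the testis form, had 133, 107, 25.8 and 64.3 SPM in progenitors of mice 1, 3, 4 and 5 (log2 difference 4.03 ± 0.56, limma adjusted p = 9.32e-07). In granulocytes it had 31.1, 41.8, 26.1, 32.3 and 11.8 SPM in mice 1, 3, 4, 5 and 6 and was also called higher than in the other classes (2.45 ± 0.50, limma adjusted p = 0.0003). It was 0 to 5.87 SPM in the foxP3 class, 0 to 5.85 SPM in the B class and 0 to 15 SPM in the dendritic class, and listed at 0 in the CD4T class of all 5 mice. Its common partner Cox6b1 had signal in every class, at 367 to 530 SPM in progenitors, 287 to 413 SPM in granulocytes and 160 to 222 SPM in the CD4T class. It rose by 0.93 ± 0.16 in log2 in progenitors (limma adjusted p = 2.35e-05). Cox6b2 lies at chr7:4751792-4753094 on the minus strand (GENCODE M21), and its promoter printed above holds none of the 3 motifs.

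The 2 members called lower in progenitors were both factors and not subunits. Cox7a2l, which joins complexes III and IV into supercomplexes (chr17:83501918-83517330, minus strand, GENCODE M21), had 67.7, 64.3, 69.8 and 111 SPM there, against 83.8 to 272 SPM in the other classes (log2 difference -0.83 ± 0.18, limma adjusted p = 0.000618). Its mean was highest in the CD4T class, at 272, 244, 180, 147 and 196 SPM, where it was called higher (log2 difference 0.84 ± 0.16, limma adjusted p = 0.000276). Cox7a2, the common complex IV subunit that Cox7a2l is named after, was called higher in progenitors, at 380 to 513 SPM (limma adjusted p = 4.27e-05), and lower in the CD4T class, at 126 to 231 SPM (limma adjusted p = 0.00946). Atp5sl, which despite its name is an assembly factor of complex I, had 12.9, 3.53, 5.17 and 0 SPM in progenitors, against 0 to 38.1 SPM in the other classes (log2 difference -1.73 ± 0.54, limma adjusted p = 0.0133).

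**Figure D4:**
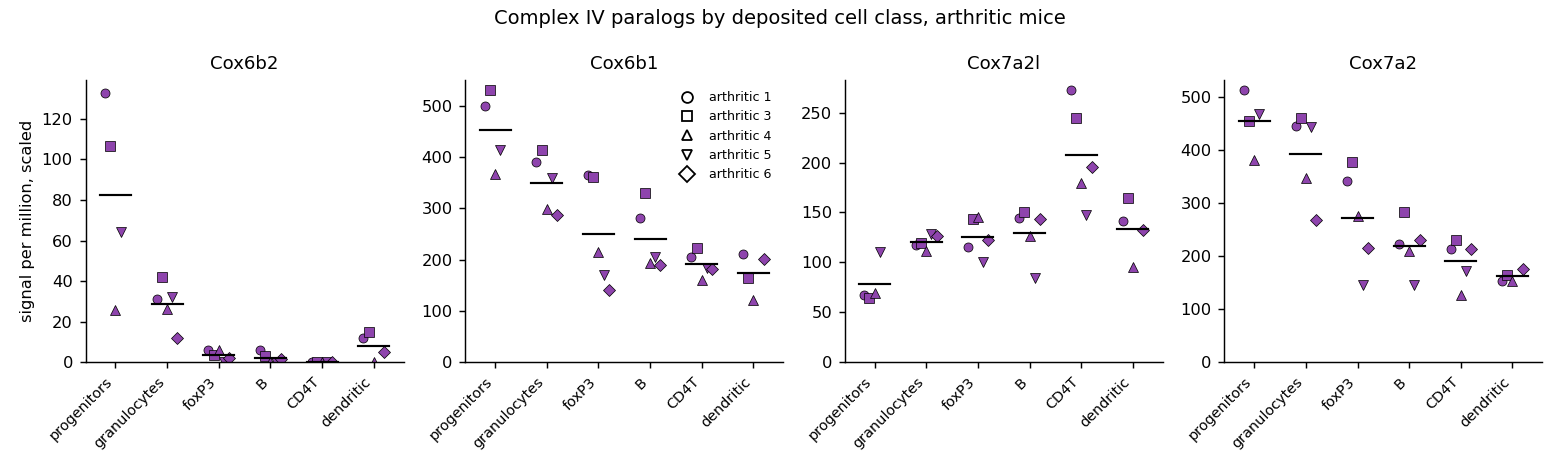
Signal per 1000000 of Cox6b2 and its common partner Cox6b1, and of Cox7a2l and the subunit Cox7a2, in the 6 deposited classes of arthritic mice. Symbols are mice and bars are means. Cox6b2 has its highest mean in progenitors (25.8 to 133 SPM), overlapping granulocytes (11.8 to 41.8 SPM), and is at 0 in the CD4T class, while Cox7a2l has its highest mean in the CD4T class and its lowest in progenitors.

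**Figure D5:**
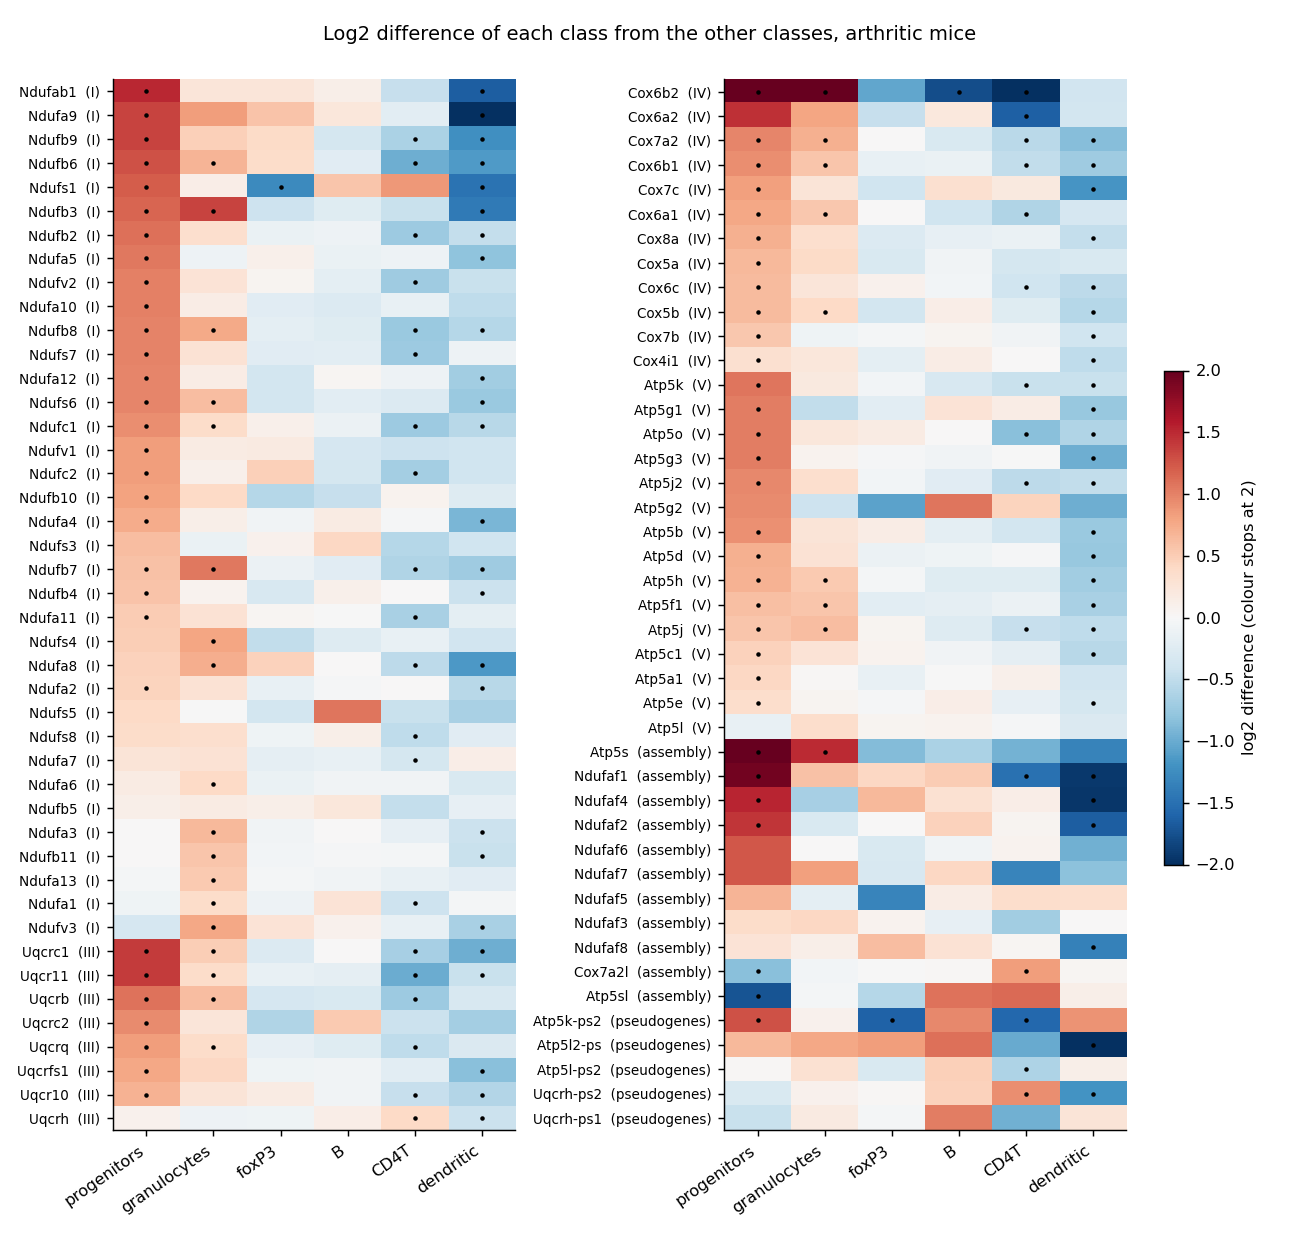
Log2 difference of tested members between a deposited class and the mean of the other classes, within arthritic mice, ordered by role. Columns are classes, the colour runs from lower (blue) to higher (red), and dots mark an adjusted p under 0.05. Most dotted cells of the progenitor column are red, with Cox7a2l and Atp5sl the 2 blue ones, and all dotted cells of the dendritic column are blue.

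In granulocytes, 27 of 88 members were called higher (30.7%, against 24.1% of all genes) and 0 lower (0%, against 5.08%), but with total signal alone as the scaling the direction turned, with 1 higher and 20 lower, or 22.7% lower against 17.4% of all genes. The median log2 difference was 0.30, against 0.42 for all genes. Among those called, the complex I subunit Ndufb3 had 108, 103, 73.5, 76.5 and 78.7 SPM, against 7.70 to 87.3 SPM in the other classes (log2 difference 1.36 ± 0.27, limma adjusted p = 0.000238). Ndufb7, another accessory subunit of complex I, had 224 to 537 SPM, against a class mean of 310 ± 48.8 SPM in progenitors and 145 ± 23.9 SPM in the CD4T class (log2 difference against all other classes 1.06 ± 0.14, limma adjusted p = 4.52e-07). Atp5g1, a form of the ring subunit of complex V, had 56.4 to 95.0 SPM and a log2 difference of -0.49 that did not pass (limma adjusted p = 0.0627). With the hemoglobin genes taken out of the total, the unscaled member sum was 15016 ± 604 per 1000000 in granulocytes, 16720 ± 1929 in the B class, 15434 ± 1413 in the CD4T class, 20641 ± 6265 in the foxP3 class, 16974 ± 2345 in the dendritic class and 30019 ± 4364 in progenitors (SD, n = 5, 5, 5, 5, 4 and 4). On this scale the foxP3 range of 14443 to 28084 overlapped the progenitor range of 25776 to 34164.

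In the CD4T class, 32 members were called lower (36.4%, against 15.7% of all genes) and 3 higher (3.41%, against 14.1%). With total signal alone as the scaling, 7 were lower (7.95%, against 11.3% of all genes) and 5 higher (5.68%, against 20.9%). The share called lower was then below that of all genes. The median was -0.36, against -0.00 for all genes. The 3 higher were Cox7a2l, Uqcrh and Uqcrh-ps2. Uqcrh, the acidic hinge protein of complex III, had 542, 482, 432, 344 and 468 SPM there (log2 difference 0.39 ± 0.12, limma adjusted p = 0.0128), and Uqcrh-ps2 had 115, 105, 99.8, 92.2 and 94.4 SPM (0.93 ± 0.23, limma adjusted p = 0.00283). Since a gene and its copy may share reads, the split between the 2 rows is uncertain. The other 5 called members of complex III were lower in this class.

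In the dendritic class, 52 members were called lower (59.1%, against 27.4% of all genes) and 0 higher (0%, against 6.11%). Under total signal alone 11 were lower, or 12.5% against 16.3% of all genes, so the share was then below that of all genes. The median was -0.54, against -0.46 for all genes. Cox4i1 fell there to 561 to 700 SPM (log2 difference -0.51 ± 0.12, limma adjusted p = 0.0012). Ndufa9, an accessory subunit of complex I, had 48.2, 7.5, 0 and 1.66 SPM, against 6.65 to 101 SPM in the other classes (log2 difference -2.77 ± 0.43, limma adjusted p = 2.15e-05). In the foxP3 class 0 members were called higher (2.75% of all genes were) and 2 lower (2.27%, against 9.86%), Ndufs1 and Atp5k-ps2. In the B class 0 were called higher (8.23% of all genes were) and 1 lower (1.14%, against 2.97%), Cox6b2.

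Over all cells none of the pathway lists had a member called in the comparison of arthritic with healthy mice (limma). The median log2 difference was 0.48 for 6 tested genes of complex II, 0.47 for 3 genes of cytochrome c and its partners, 0.56 for 21 further assembly factors and 0.51 for 9 ATP synthase accessory genes and carriers. It was 0.38 for 16 TCA cycle genes and -0.04 for 8 regulators of mitochondrial genes, against 0.26 for all genes. At an unadjusted p under 0.05 (limma) the lists held 2, 1, 6, 2, 0 and 0 genes in either direction, in the same order. Of all genes, 10.8% were higher and 2.57% lower at that level. Pet100, an assembly factor of complex IV outside the rule, had 172 ± 32.2 SPM in arthritic and 109 ± 12 SPM in healthy mice without overlap (SD, n = 5 and 4; log2 difference 0.64 ± 0.19, limma adjusted p = 0.240). In progenitors against the other classes, 4 of 8 complex II genes and 1 of 3 genes of cytochrome c and its partners were called higher. The same held for 6 of 32 further assembly factors and 7 of 9 accessory genes and carriers. So were 10 of 17 TCA cycle genes and 3 of 13 regulators, and none of these lists had a gene called lower there. Against the 19.3% of all genes called higher in progenitors, the shares were 18.8% for the further assembly factors and 23.1% for the regulators, both near that background, and 50% for complex II, 77.8% for the accessory genes and carriers and 58.8% for the TCA cycle genes.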

How the data were processed

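The authors deposited a table of signal values, whole-number sums per gene and barcode column that were not scaled to a common total. Per the labels' protocols, the Seq-Well reads went through the core protocol of Drop-seq, with GRCm38.p5 as the genome, and the way cell classes were called is not stated. Because columns repeat each other, the deposited signal was not treated as counts of single cells. A deposited table of joint data was not used, because none of its columns belongs to a blood sample, and 0 columns of the blood table were left without a sample.

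Signal was summed per mouse, or per mouse and class where 5 or more columns were present, and scaled with TMM factors (trims of 30% and 5%) to signal per 1000000 (SPM). The test was limma 3.58.1 with trend, in R 4.3.3, for genes that reached 10 SPM in at least the number of mice of the smaller group. It ran on log2(SPM + 1), with Benjamini-Hochberg adjustment over all genes tested and a threshold of 0.05. Fold changes on this scale understate the change of low genes. Class contrasts used the arthritic mice with the mouse as a block, over 6 classes with at least 3 such mice. The fit was tested on simulated data. Sums and ratios got no test. Other steps used Python 3.11.15 (pandas 2.3.3, numpy 2.4.6).

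Nothing says more of the replicates than that they are separate mice. The members and the gene lists (complex II, cytochrome c, further assembly factors, ATP synthase accessory genes and carriers, regulators, TCA cycle, and the marker lists) were chosen with earlier results of these data known. Named were members past the threshold or with the 5 smallest p per direction, the 3 highest of each complex, tissue-restricted forms with their partners, and the 3 largest differences per class and direction, of which the text gives part. Values of 1 member are not reported here, and counts and sums include it. Of these, Cox7b2 and Cox8c had no row in the table used here. Alternatives changed the scaling, the genes in the total, the columns, the filter, the pseudocount, weights, covariates, the column minimum and the mice. Coordinates are from GENCODE M21 and promoters from RefSeq GRCm38.p6.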

Additional observations from a re-analysis of the deposited data

Results flagged for a closer look

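Single mice stood apart from the rest of their group in 8 of 157 groups tested by Dixon's criterion, and chance marks about 1 in 20. Over all cells, healthy mouse 4 had 29.0 SPM of Atp5k-ps2 where the other healthy mice had 9.39 to 12.6 SPM, and healthy mouse 1 had 240 SPM of Cox6b1 where the others had 147 to 163 SPM. In granulocytes, healthy mouse 4 had 179 SPM of Atp5a1, against 96.5 to 110 SPM in the other healthy mice. In the B class, arthritic mouse 4 had 193 SPM of Ndufb4, against 177 to 181 SPM in the other arthritic mice. The remaining 4 lay among classes within arthritic mice. Mouse 5 had 111 SPM of Cox7a2l in progenitors (64.3 to 69.8 SPM in the others) and 22.9 SPM of Ndufb10 in the B class (64.3 to 79.0 SPM), where it had only 9 columns. Mouse 3 had 4.91 SPM of Cox6a2 in the CD4T class (0 to 1.28 SPM), and mouse 1 had 48.2 SPM of Ndufa9 in the dendritic class (0 to 7.5 SPM). No cause was tested for any of them.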

How the results depend on the processing

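No member was called over all cells or in the B class under any alternative, and the log2 ratio of the summed members over all cells kept its direction (0.30 to 0.41 with any 1 mouse left out). In granulocytes the count of members called, 0 as reported, was 1 without hemoglobin genes in the total, 2 with no filter and 1 with the mean of scaled columns. These were 1.22%, 2.13% and 1.28% of the members tested, each below the 2.91%, 12.6% and 1.37% of all genes called higher. The count was 13 without columns identical between the groups, a fit that also lacks healthy mouse 2. With a minimum of 10 columns, which leaves out only healthy mouse 2, it was 8, and with any 1 mouse left out it was 0 to 8. The log2 ratio of the summed members in granulocytes was 0.39, and 0.44 to 0.61 with any 1 mouse left out, where the TMM reference mouse can change. An alternative chosen after seeing the data, TMM against the deepest mouse, gave 0.47 there, 0.39 over all cells and 0.28 in the B class, with 0 members called in each. In the B class the ratio, 0.23 as reported, was 0.50 without columns identical between the groups, 0.55 with a minimum of 10 columns and 0.17 to 0.51 with any 1 mouse left out. Leaving out the columns identical between the groups put healthy mouse 4 under the minimum of 5 B class columns, so that fit lacked it. With the replicate block 0 members were called in each of the 3 comparisons, and the numbers did not pair the mice (correlations of -0.00, -0.29 and 0.30 for numbers 1, 3 and 4). Among classes, total signal alone gave 1 member higher and 20 lower in granulocytes, 5 higher and 7 lower in CD4T and 11 lower in dendritic. In CD4T and dendritic the shares called lower, 7.95% and 12.5%, were below the 11.3% and 16.3% of all genes. Without hemoglobin genes, granulocytes had 1 lower (1.11%, against 5.89% of all genes) and foxP3 1 higher (1.11%, against 2.73%). Dendritic then had 1 higher (1.11%, against 8.97%) and 31 lower (34.4%, against 20.5%). With the mean of scaled columns, granulocytes had 1 lower (1.14%, against 5.31% of all genes). In foxP3 1 was higher (1.14%, against 2.69%) and 1 lower (1.14%, against 8.55%). In B 8 were lower (9.09%, against 3.70%) and in dendritic 32 (36.4%, against 21.1%). With 1 column of each identical set, foxP3 had 4 lower (4.44%, against 8.49% of all genes) and CD4T 21 lower (23.3%, against 11.9%). With any 1 arthritic mouse left out, the counts were 1 to 2 lower in progenitors, 11 to 28 higher and 0 to 1 lower in granulocytes, 0 to 2 higher and 0 to 3 lower in foxP3, 0 to 1 lower in B, 20 to 32 lower in CD4T and 22 to 46 lower in dendritic. The share higher in granulocytes was 12.6% to 32.2%, against 16.1% to 22.2% of all genes. The share lower was 23.0% to 36.8% in CD4T, against 12.4% to 14.1%, and 25.3% to 52.9% in dendritic, against 13.6% to 28.8%. Several negative differences, none of which passed the threshold, turned positive, and the cause was not tested. Over all cells, Ndufb5 was 0.071 with array weights and 0.0016 with the replicate block, and Ndufs5 was 0.015 with total signal alone, 0.26 with array weights, 0.036 with the mean of scaled columns and -0.38 to 0.23 with any 1 mouse left out. In granulocytes without columns identical between the groups, Atp5k-ps2 was 0.058, Atp5o 0.065 and Ndufs1 0.021. With 1 column of each identical set Ndufb5 was 0.054 and Atp5o 0.022, and Ndufs1 was 0.039 with the replicate block and 0.10 with a minimum of 10 columns. With any 1 mouse left out, Atp5a1 was -0.31 to 0.058, Ndufb5 -0.40 to 0.17, Atp5o -0.22 to 0.17 and Ndufs1 -0.46 to 0.16. In the B class, array weights gave 0.20 for Ndufa12, 0.13 for Ndufb11, 0.37 for Atp5k-ps2, 0.060 for Ndufb10 and 0.17 for Ndufv2. Without columns identical between the groups Ndufa12 was 0.42, Ndufb11 0.50 and Atp5k-ps2 2.15, with 1 column of each identical set Atp5k-ps2 was 0.13, and with a minimum of 10 columns Ndufv2 was 0.052. With any 1 mouse left out, Ndufb11 was -1.10 to 0.18, Atp5k-ps2 -1.34 to 0.072 and Ndufv2 -0.42 to 0.039. Among classes, with 1 column of each identical set Ndufaf4 was -0.91 in foxP3 (0.65 as reported) and Ndufaf5 -0.037 in dendritic (0.33 as reported), where Ndufaf5 was -0.059 to 1.01 with any 1 mouse left out. The depth of the healthy mice limits each comparison with them, since 1 unit of signal was worth up to 3.02 SPM there.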
